A study of Mus musculus with 22 samples.

Results

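The genes described here are 44 genes of DNA replication and S phase, read in dendritic cells (DCs) of the mouse pancreas. They were chosen from textbook knowledge of the replication machinery, with earlier results of these data known. Of these, 43 had a probe set that named them alone in the platform annotation, out of 18193 genes with such a probe set. Chaf1a, the large subunit of chromatin assembly factor, was not analysed here. Each gene was read at the probe set with its highest mean over all arrays, and the 43 genes fall into 9 roles, from origin licensing (10 genes) to G1/S control (3 genes).

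CD11c+CD8α- DCs were sorted by flow cytometry from CD45+ cells of the pancreas of female mice at 5 weeks of age, either NOD mice, a strain that develops autoimmune diabetes spontaneously and was still pre-diabetic, or C57BL/6 mice, which do not become diabetic. Neither strain carried an engineered allele, and 10 pooled pancreases are given for each sample, so that no array stands for a single mouse. The labels and methods do not say whether arrays of a group came from separate pools, and the p-values measure the spread between arrays, which may be in part technical. At steady state the cells were lysed without culture (4 C57BL/6 arrays, 3 NOD arrays). Other cells were cultured for 18 hours with PBS (4 arrays of each strain) or with lipopolysaccharide (LPS), a bacterial ligand of Toll-like receptor 4 (3 C57BL/6 arrays, 4 NOD arrays), which makes 22 arrays in 6 groups.

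A replication origin is licensed when the origin recognition complex, Cdc6 and Cdt1 load the MCM helicase onto DNA in G1, and it fires in S phase when Cdc7 kinase, Cdc45, the GINS complex and Mcm10 turn the helicase on. Polymerase alpha with its primase starts each strand, polymerases delta and epsilon extend it on the sliding clamp PCNA, which is placed by replication factor C, while RPA covers the single strand and ribonucleotide reductase, thymidine kinase and thymidylate synthase feed the pools of deoxynucleotides. Many of these genes are known targets of E2F transcription factors, so that their transcripts rise together when a cell passes from G1 into S phase, and their level in a sorted population is widely used as a sign of how many of its cells are cycling.

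All levels below are log2 intensities, on which a difference of 1 is a 2-fold change, and a level of one probe set is not compared with that of another. The median intensity of the arrays ran from 7.63 to 7.68 and their lower quartile from 6.03 to 6.36. Array data have no read depth, and the number of arrays limits the precision. Genes were tested with limma together with all 45037 probe sets, and one was called lower or higher when its adjusted p (Benjamini-Hochberg) was under 0.1. The sort markers were checked against the labels. Itgax, which encodes CD11c, lay between the 88.2nd and 92.7th percentile of the array at steady state and between the 58.1st and 73.2nd in culture, the class II gene H2-Ab1 lay at or above the 97.8th percentile on every array, and Cd8a lay between the 43.3rd and 53.0th percentile at steady state and between the 57.7th and 85.3rd in culture. The acinar carboxypeptidase Cpa1 lay at or above the 97.0th percentile at steady state, so RNA of the exocrine pancreas was present in these libraries. Of the genes listed here as macrophage markers, Csf1r lay at or above the 98.2nd percentile on every array and C1qa at or above the 86.2nd. Of the NK markers, Gzma lay between the 79.4th and 95.0th percentile and Ncr1 between the 26.9th and 64.0th. These levels alone do not show how pure the sort was. In the NOD LPS group replicate 1 stood apart from the other 3 arrays, with 39 of the 43 genes above their group mean and a median deviation of 0.34, and results that rest on it are given with and without it.

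The promoters were examined for letter strings, which were not themselves used to choose the genes. Many of the genes are known E2F targets, however, so the share with a match is not independent of that choice. RefSeq promoter windows of the GRCm38.p6 build, from 250 bases before to 50 bases after each transcription start, were at hand for 36 of the 43 genes, not for Prim2, Rfc2, Mcm4, Ccne2, Pole, Gins1 and Gins2. Each window was searched on both strands for 4 letter strings of the E2F type, TTTCCCGC, TTTGGCGC, TTTCGCGC and TTTGGCGG, and matches that overlap were counted separately. At least 1 of them was present for 14 of the 36 genes (38.9%), namely Cdc6, Cdt1, Lig1, Mcm3, Mcm5, Mcm6, Mcm7, Orc1, Pola1, Pola2, Pold1, Rfc3, Rpa1 and Uhrf1, and for 730 of all 27025 genes with a window (2.7%), or in 2.37% of the 32851 windows. A match describes the letters and is not evidence of binding. The 170 bases upstream of the start are printed for 5 genes, with the matches in capitals. Mcm5 (chr8:75109339-75109508 (+)), Mcm6 (chr1:128359706-128359875 (-)), Cdc6 (chr11:98907981-98908150 (+)) and Pola1 (chrX:93632156-93632325 (-)) were among the genes that fell most in culture or were lower in NOD DCs, and Orc1 (chr4:108579284-108579453 (+)) carried the same kind of match and moved the other way in culture. Each lies wholly upstream of the gene, and in Mcm5 and Mcm6 an overlapping pair of matches on opposite strands begins at position -153 and -110 from the start.
Mcm5: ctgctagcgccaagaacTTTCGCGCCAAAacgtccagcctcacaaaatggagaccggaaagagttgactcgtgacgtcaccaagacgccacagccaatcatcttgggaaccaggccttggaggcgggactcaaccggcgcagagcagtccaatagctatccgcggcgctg
Mcm6: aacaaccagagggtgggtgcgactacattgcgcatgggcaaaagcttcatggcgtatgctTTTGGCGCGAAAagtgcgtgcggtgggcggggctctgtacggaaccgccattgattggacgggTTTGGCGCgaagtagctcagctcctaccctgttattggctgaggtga
Cdc6: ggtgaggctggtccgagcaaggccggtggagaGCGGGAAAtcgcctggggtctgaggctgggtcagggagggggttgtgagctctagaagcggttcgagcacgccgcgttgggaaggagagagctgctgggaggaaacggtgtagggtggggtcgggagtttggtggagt
Pola1: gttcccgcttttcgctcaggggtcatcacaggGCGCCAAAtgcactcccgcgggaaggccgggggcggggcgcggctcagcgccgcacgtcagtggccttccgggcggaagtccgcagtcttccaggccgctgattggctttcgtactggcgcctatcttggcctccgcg
Orc1: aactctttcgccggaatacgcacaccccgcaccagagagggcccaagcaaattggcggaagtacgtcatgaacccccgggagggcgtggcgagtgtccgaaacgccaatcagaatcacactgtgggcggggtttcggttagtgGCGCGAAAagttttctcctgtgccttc

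**Figure D1:**
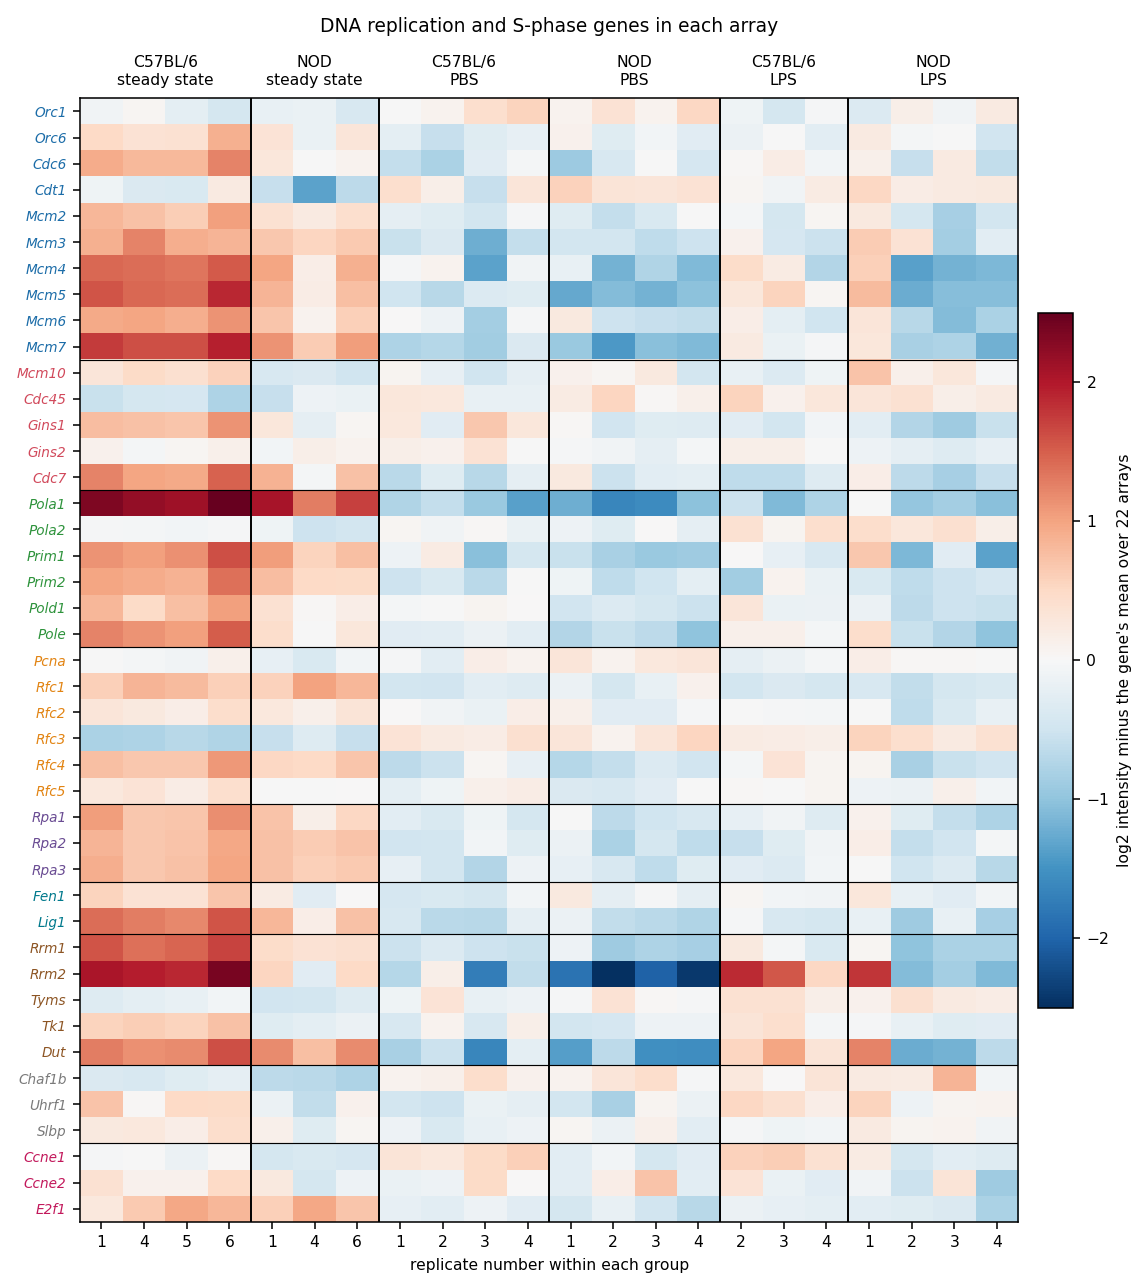
Log2 intensity of 43 DNA replication and S-phase genes (rows, coloured by role) on 22 arrays (columns, grouped by strain and condition), shown as the difference from each gene's mean over the 22 arrays. C57BL/6 steady-state arrays are the reddest block, with a median over the genes of 0.67 to 0.89 above that mean, NOD steady-state arrays lie at -0.0014 to 0.37, and NOD LPS replicate 1 is redder than the other NOD LPS arrays.

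At steady state the replication genes were lower in NOD DCs than in C57BL/6 DCs. Of the 43 genes, 24 were called lower in NOD and none higher, and the median log2 difference over all 43 was -0.44. In either direction 31 had an unadjusted p under 0.05, among them Rfc3, which was higher in NOD. The share of all genes under that p is not given here. Over all probe sets 7.94% were called lower and 7.09% higher, or 8.35% and 6.87% when each gene was read at its brightest probe set, and the median difference over all genes was 0.03. In 26 of the 43 genes every NOD array lay below every C57BL/6 array, against 11.6% of all genes, and Rfc3 was the 1 gene with every NOD array above, against 12.7%.

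Licensing was the role with the most genes called, 8 of 10. Mcm5, a subunit of the helicase, had levels of 10.96, 10.80, 10.78 and 11.26 on the 4 C57BL/6 arrays and of 10.22, 9.56 and 10.13 on the 3 NOD arrays. The NOD arrays all lay lower, and the difference was -0.98 ± 0.17 (SE, adjusted p = 0.00406), or 1.98-fold lower. Mcm7 was at 11.91, 11.77, 11.77 and 12.11 in C57BL/6 and at 11.28, 10.79 and 11.21 in NOD, again without overlap, with a difference of -0.80 ± 0.14 (adjusted p = 0.00367). Cdc6, the loader of the helicase, was at 8.11, 7.996, 8.01 and 8.44 in C57BL/6 and at 7.47, 7.19 and 7.27 in NOD (difference -0.83 ± 0.13, adjusted p = 0.00193). Cdt1, its partner in loading, differed by -0.70, Mcm4 by -0.75, Mcm6 by -0.54, Mcm2 by -0.47 and Mcm3 by -0.35, so that all 6 helicase subunits were called lower. The origin recognition subunits were not. Orc1 differed by -0.07 ± 0.13 and Orc6 by -0.37 ± 0.16 (adjusted p = 0.191). With the replicate number as a block, Orc6 passed (adjusted p = 0.04).

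Among the genes of origin firing, 3 of 5 were called lower. Mcm10, which joins the helicase as it starts to unwind, was at 8.75, 8.93, 8.85 and 9.04 in C57BL/6 and at 8.05, 8.09 and 7.96 in NOD. These groups did not overlap, and the difference was -0.86 ± 0.10 (adjusted p = 0.000283). Gins1, a GINS subunit, was at 9.36, 9.32, 9.28 and 9.72 against 8.88, 8.36 and 8.63 in NOD (difference -0.80 ± 0.15), and Cdc7 differed by -0.65. The other GINS subunit on the list, Gins2, was at 9.49 ± 0.08 (SD, n = 4) in C57BL/6 and 9.49 ± 0.11 (SD, n = 3) in NOD, with a difference of 0.00 ± 0.10 (SE). Cdc45 differed by 0.26 ± 0.14 (adjusted p = 0.273).

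Of the polymerase and primase genes 4 of 6 were called lower. Pole, the catalytic subunit of the leading-strand polymerase, was at 8.46, 8.34, 8.24 and 8.74 in C57BL/6 and at 7.67, 7.22 and 7.51 in NOD, a difference of -0.98 ± 0.14 (adjusted p = 0.00131). Pola1 differed by -0.64, Pold1 by -0.59 and Prim2 by -0.46. Pola2 differed by -0.31 ± 0.11 (adjusted p = 0.115) and Prim1 by -0.44 ± 0.16 (adjusted p = 0.118), and Prim1 passed with the replicate block (adjusted p = 0.0429).

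The clamp, its loader and the single-strand binding proteins showed the fewest calls. Rfc5 was the 1 of 6 clamp and loader genes called lower, at 9.58 ± 0.10 (SD, n = 4) in C57BL/6 and 9.27 ± 0.01 (SD, n = 3) in NOD. Pcna, one of the most used markers of S phase, was at 12.87, 12.81, 12.79 and 12.99 in C57BL/6 and at 12.66, 12.48 and 12.79 in NOD. The groups overlapped, and the difference was -0.22 ± 0.11 (adjusted p = 0.231). Rfc2 differed by -0.05 ± 0.10, Rfc1 by 0.09, Rfc4 by -0.22 and Rfc3 by 0.26 (adjusted p = 0.135). None of the 3 RPA genes was called, with differences of -0.44 for Rpa1, -0.12 for Rpa2 and -0.16 for Rpa3, and Rpa1 passed with the replicate block (adjusted p = 0.0117). Both genes of Okazaki fragment maturation were called. The ligase Lig1 was at 10.88, 10.77, 10.68 and 11.06 in C57BL/6 and at 10.33, 9.65 and 10.22 in NOD (difference -0.78 ± 0.16), and the flap nuclease Fen1 differed by -0.52.

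The largest differences were in the supply of deoxynucleotides. Rrm2, the small subunit of ribonucleotide reductase, differed by -1.81 ± 0.20, or 3.51-fold (adjusted p = 0.000171). The difference was smaller with the mean of its 3 probe sets (-1.31, adjusted p = 0.000291) and without NOD replicate 4 (-1.55). Rrm1, its large subunit, was at 11.10, 10.91, 10.98 and 11.23 in C57BL/6 and at 9.98, 9.90 and 9.93 in NOD, a difference of -1.12 ± 0.10 or 2.17-fold (adjusted p = 5.12e-05). Tk1, the thymidine kinase of S phase, was at 8.80, 8.86, 8.81 and 8.97 against 7.95, 8.01 and 8.10 (difference -0.84 ± 0.09). Neither Rrm1 nor Tk1 overlapped between the strains, and the SD of the 3 NOD arrays was under 0.1 for both. Thymidylate synthase, Tyms, differed by -0.21 ± 0.10 and the dUTPase Dut by -0.26 ± 0.15, and neither passed. Of the chromatin genes, Uhrf1, which recruits the maintenance methyltransferase to new DNA, differed by -0.65 ± 0.19 with overlapping groups, Chaf1b by -0.38 ± 0.09 and the histone mRNA binding protein Slbp by -0.32 ± 0.12 (adjusted p = 0.139, and 0.0708 with the replicate block). Of the G1/S genes, cyclin E1 (Ccne1) was at 9.02, 9.05, 8.90 and 9.08 in C57BL/6 and at 8.62, 8.66 and 8.64 in NOD (difference -0.37 ± 0.09, adjusted p = 0.0253). Cyclin E2 (Ccne2) differed by -0.38 ± 0.16 (adjusted p = 0.19, and 0.0387 with the block) and E2f1 by 0.08 ± 0.17.

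**Figure D2:**
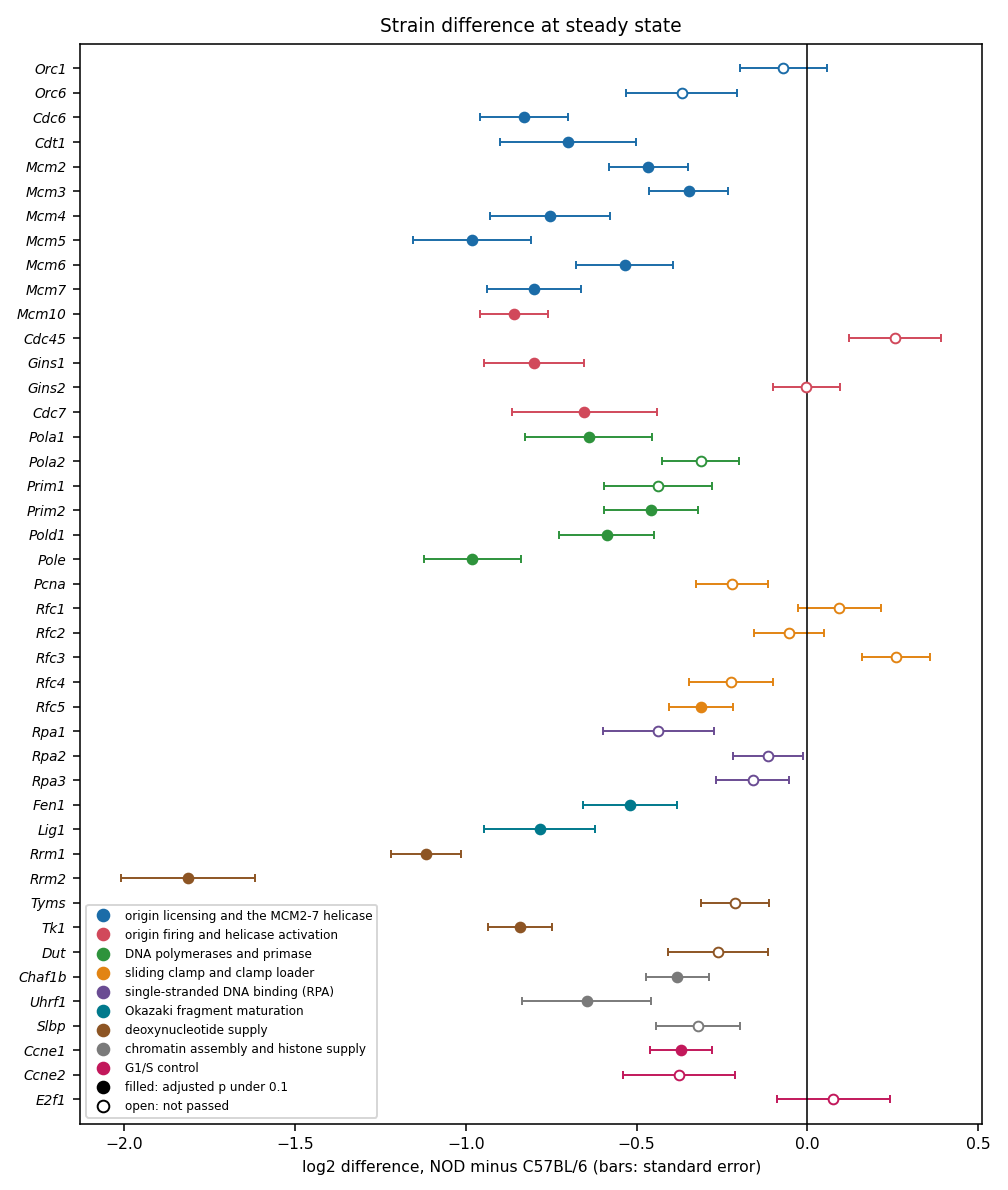
Log2 difference between NOD and C57BL/6 DCs at steady state for each of 43 genes, with its standard error (3 NOD and 4 C57BL/6 arrays), coloured by role and filled where the adjusted p was under 0.1. All 24 filled points lie left of 0, Rrm2 is farthest left at -1.81, and the clamp loader genes Rfc1 to Rfc4 and E2f1 lie near 0 or to the right.

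Left-out arrays kept the direction of the steady-state result. The number of genes called ranged from 16 (without NOD replicate 4) to 30 (without NOD replicate 1, 29 lower and 1 higher). The share of all probe sets called in these fits is not given here. The 12 genes Ccne1, Cdc6, Gins1, Lig1, Mcm10, Mcm5, Mcm7, Pold1, Pole, Rrm1, Rrm2 and Tk1 were called lower in every alternative that tested them. Of all 96 probe sets that name a member alone, 48 were called lower and none higher. Of the 19 called genes with further probe sets, 15 had another one called lower too. Prim2 is a gene whose probe sets disagreed in size. Its brightest probe set differed by -0.46, a second one by -3.18 (adjusted p = 5.29e-07), and the remaining one by -0.21 without passing, and the second also differed by -1.54 in PBS culture, where the brightest differed by 0.02.

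Other genes of the cell cycle from fixed lists moved in the same comparison. Of 32 further replication factors 12 were called lower and none higher, led by geminin (Gmnn, the inhibitor of Cdt1) at -1.75, Top2a at -1.44 and the Cdc7 activator Dbf4 at -0.94. Of 17 further enzymes of nucleotide synthesis 4 were lower (Shmt1 -1.29, Dck -1.07), of 10 further chromatin replication genes 6 were lower (Asf1b -1.41, Hells -1.0), and of 18 checkpoint and repair genes 8 were lower (Chek1 -1.17) and Wee1, which restrains entry into mitosis, was higher (0.75). Among 28 regulators of G1/S, 12 were lower, including E2f2 (-1.17), cyclin D1 (Ccnd1, -1.13) and E2f7 (-1.12), and 2 were higher, cyclin D3 (Ccnd3, 0.44) and Cdc25a (0.36). Of 35 genes of mitosis and G2/M 33 were lower, with a median difference of -0.96.

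Markers of other cells differed between the same arrays. Among 15 NK and innate lymphoid markers, NOD arrays were lower for 12, with a summed log2 level of 12.94 to 13.1 on the NOD arrays and 13.67 to 13.93 on the C57BL/6 arrays. Of the other marker lists, 4 of 9 T cell genes were higher, 3 of 5 monocyte genes lower, 3 of 6 plasmacytoid DC genes higher and 1 lower, 2 of 12 macrophage genes higher and 1 lower, 3 of 11 CD11c+ DC genes lower, 1 of 6 genes of CD8α+ or CD103+ DCs higher, and none of 8 B cell or 6 acinar genes called. The summed acinar level was 15.37 to 16.37 in NOD and 15.83 to 16.28 in C57BL/6. Their part in the result was not tested. In RNA of a sorted population, fewer cycling cells and less RNA per cycling cell cannot be told apart.

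**Figure D3:**
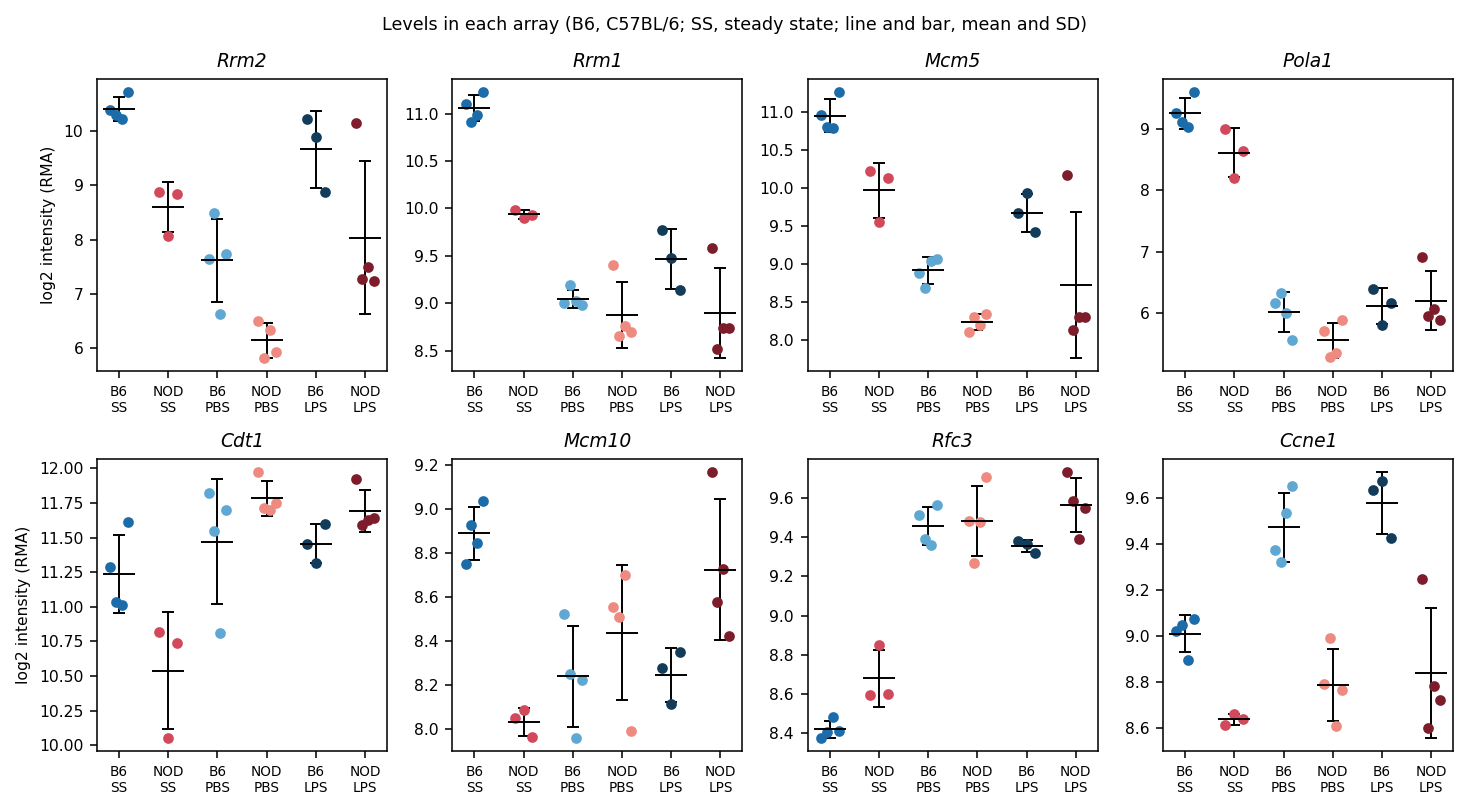
Log2 intensity of 8 genes on each array (points) with the group mean and SD (line and bar) for C57BL/6 and NOD DCs at steady state, after PBS culture and after LPS culture; the vertical axes do not start at 0 and differ between panels. Rrm2 falls from 10.23 to 10.72 on the C57BL/6 steady-state arrays to 6.63 to 8.49 in PBS culture, Rfc3 rises, and NOD LPS replicate 1 lies above its group in most panels.

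Culture for 18 hours in PBS was accompanied by a fall of most replication genes in both strains. In C57BL/6 DCs 32 of 43 were lower after culture than at steady state and 5 were higher (Orc1, Cdc45, Rfc3, Chaf1b and Ccne1), with a median of -0.89. In NOD DCs 24 were lower and 8 higher (Orc1, Cdt1, Mcm10, Cdc45, Pcna, Rfc3, Tyms and Chaf1b), with a median of -0.63. Culture changed much of the transcriptome. In C57BL/6 30.5% of all probe sets were called lower and 42.1% higher, in NOD 29.3% and 37.8%, and the median over all genes was 0.17 and 0.16. The design text of the series describes the cultured cells as another experiment, while the methods split sorted cells between direct lysis and culture. Culture and experiment therefore cannot be told apart, and same-numbered arrays may be portions of 1 pool.

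Pola1, the catalytic subunit of polymerase alpha, fell most. It was at 9.26, 9.12, 9.04 and 9.60 on the C57BL/6 steady-state arrays and at 6.17, 6.32, 6.00 and 5.57 after culture, a difference of -3.24 ± 0.17 or 9.42-fold (adjusted p = 1.83e-08). In NOD it went from 8.99, 8.21 and 8.64 to 5.71, 5.30, 5.35 and 5.90, a difference of -3.05 ± 0.20 or 8.28-fold. In all 4 cultured groups its mean lay below the lower quartile of the arrays, and the distance of such a level from background was not measured, so that its fold may be understated.

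Rrm2 and Dut followed. Rrm2 fell from 10.39, 10.30, 10.23 and 10.72 to 7.64, 8.49, 6.63 and 7.73 in C57BL/6 (-2.79 ± 0.30, 6.91-fold) and from 8.88, 8.07 and 8.85 to 6.51, 5.82, 6.33 and 5.93 in NOD (-2.45 ± 0.22, 5.47-fold), where its mean also lay below the lower quartile of the arrays and the same limit holds. With the mean of its 3 probe sets the fall was smaller, -2.03 in C57BL/6 and -1.51 in NOD. Dut, which keeps uracil out of DNA, differed little between the strains at steady state and fell in culture in both (-2.11 in C57BL/6, -2.32 in NOD). All 6 helicase subunits fell, with differences of -2.41 in C57BL/6 and -2.06 in NOD for Mcm7 and of -2.03 and -1.73 for Mcm5. The other 4 lay between -1.77 and -1.06 in C57BL/6 and between -1.48 and -0.66 in NOD. All 3 RPA genes, which were not called between the strains at steady state, fell in both strains, with differences from -1.21 to -1.14 in C57BL/6 and from -1.20 to -0.85 in NOD.

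The genes that rose in culture came from several roles. Rfc3, a clamp loader subunit, rose from 8.38, 8.41, 8.48 and 8.41 to 9.51, 9.39, 9.36 and 9.57 in C57BL/6, without overlap (1.04 ± 0.10, 2.05-fold), and by 0.80 ± 0.14 in NOD. Cdc45 rose by 0.59 and 0.52, Chaf1b by 0.51 and 0.90 and Orc1 by 0.45 and 0.52 in C57BL/6 and NOD, and Orc1 overlapped between the C57BL/6 groups. Ccne1 rose in C57BL/6 (0.46 ± 0.11) and differed by 0.15 ± 0.12 in NOD. Of the other genes, 24 fell in both strains, 7 fell in C57BL/6 without passing in NOD (Orc6, Gins1, Rfc5, Fen1, Tk1, Uhrf1 and Slbp), Mcm10 fell in C57BL/6 and rose in NOD (adjusted p = 0.0474), and Gins2, Pola2 and Ccne2 were called in neither. With the replicate number as a block, for which each strain shared only 2 numbers, Orc1 (adjusted p = 0.176), Rfc2 (0.403) and Rfc5 (0.138) lost their calls in C57BL/6, and Mcm10 (0.419), Cdc7 (0.102) and Rfc2 (0.542) lost theirs in NOD. Cdt1 gained a call in C57BL/6 (0.60, adjusted p = 0.00689). Across the 43 genes the culture effects of the strains, which share no array, had a Pearson r of 0.927, and across all 18193 genes r was 0.923, so the value over the replication genes was close to that over all genes. Genes are not independent replicates.

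Genes with several probe sets were not all called the same way in culture. For E2f1 and Prim2 in both strains, and for Cdc7 and Tyms in NOD, another probe set was called in the opposite direction. When all probe sets of a gene were averaged, Tyms differed by -0.34 in C57BL/6 and by -0.055 in NOD, where its brightest probe set differed by 0.19 and 0.50.

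Other lists and markers moved in culture as well. Of 35 mitosis genes 32 fell and 3 rose in C57BL/6 (median -1.88), and 24 fell and 4 rose in NOD (median -0.97). Of the 32 further replication factors 17 fell and 5 rose in C57BL/6 and 15 fell and 7 rose in NOD, with Dna2 at -3.09 and -2.84 and Mcm9 at 1.81 and 2.15. Of the 28 G1/S regulators 17 fell and 4 rose in C57BL/6 and 15 fell and 6 rose in NOD, and Cdkn1a, the inhibitor of cyclin-dependent kinases p21, rose by 2.81 and 3.25. All 6 acinar genes fell in both strains, from a summed level of 15.37 to 16.37 at steady state to 11.31 to 15.25 in PBS culture. Of the CD11c+ DC markers, Itgax fell (-2.29 in C57BL/6, -1.96 in NOD), and the means of H2-Ab1 and Itgam went down in both strains. Those of Flt3 and Zbtb46 went up in C57BL/6 (9.487 to 9.845 and 9.599 to 10.044). In NOD they went from 9.128 to 9.105 and from 9.65 to 9.717. The count over this list in culture is not given here. Among macrophage genes 7 of 12 fell in C57BL/6 and 6 in NOD, and 7 of 15 NK and innate lymphoid markers rose in each strain, led by Gzmb. The NK and innate lymphoid markers did not all move up. The mean of Ncr1 went from 8.57 to 8.17 in C57BL/6 and from 7.12 to 6.62 in NOD. That of Gzma went from 11.72 to 11.21 in C57BL/6 and from 10.11 to 10.94 in NOD. The part of these lists and markers in the fall of the replication genes was not tested.

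**Figure D4:**
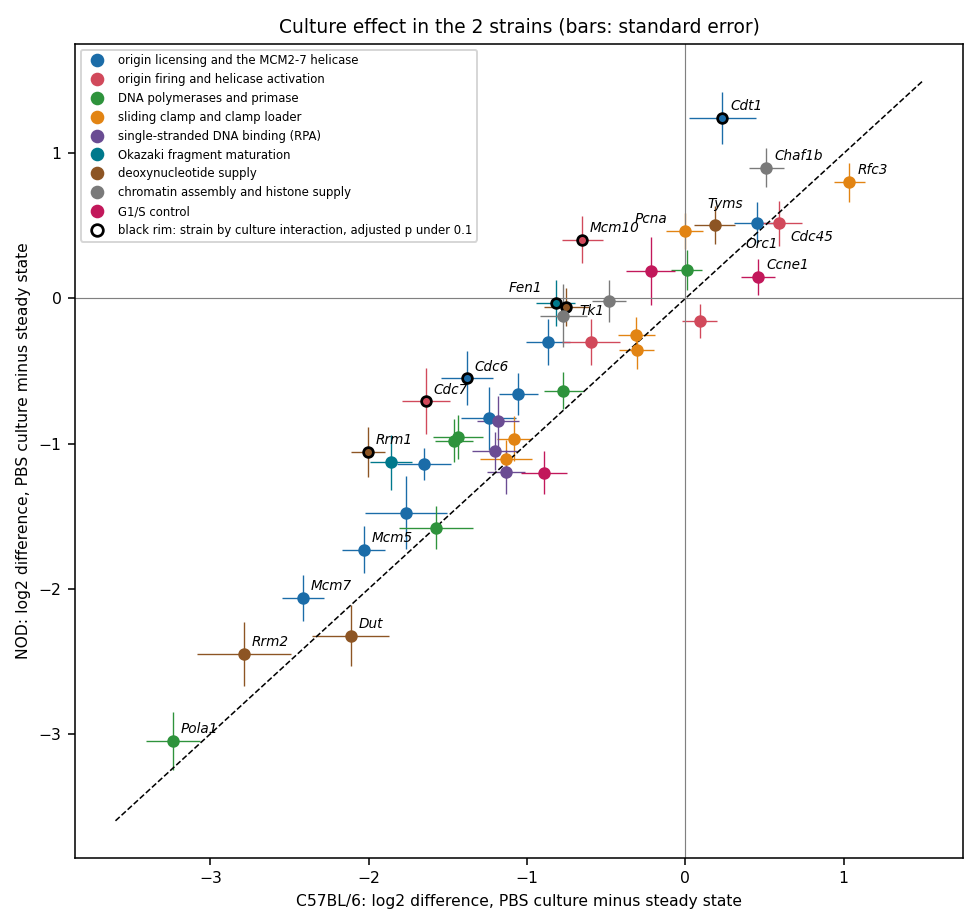
Log2 difference between PBS culture and steady state in C57BL/6 DCs (horizontal) and NOD DCs (vertical) for 43 genes, with standard errors, coloured by role; the dashed line marks equal effects. Pola1 lies at the lower left (-3.24 and -3.05), Rfc3, Orc1, Cdc45 and Chaf1b lie above 0 on both axes, and the 7 genes with a black rim, all above the dashed line, had a strain by culture interaction past the threshold.

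The culture effect differed between the strains for 7 genes, all with a smaller fall or a larger rise in NOD than in C57BL/6, against 3.98% of all probe sets called in that direction and 2.82% in the other. The interaction, the NOD effect minus the C57BL/6 effect, was 1.06 ± 0.21 for Mcm10 (adjusted p = 0.00609), 1.01 ± 0.30 for Cdt1, 0.95 ± 0.20 for Rrm1 (adjusted p = 0.0108), 0.93 ± 0.29 for Cdc7, 0.83 ± 0.27 for Cdc6, 0.79 ± 0.20 for Fen1 and 0.69 ± 0.19 for Tk1. The median over the 43 genes was 0.34 and over all genes 0.01. Mcm10 illustrates it. On the PBS arrays it was at 8.52, 8.25, 7.96 and 8.22 in C57BL/6 and at 8.55, 8.51, 8.70 and 7.99 in NOD, so that the gap of steady state was gone and the groups overlapped.

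With a block for the replicate number within each strain none of the 7 genes passed (adjusted p from 0.132 to 0.789), for which each strain shared only 2 numbers. With NOD steady-state replicate 4 left out the count fell to 2. Leaving out replicate 6 of the C57BL/6 steady-state arrays gave 3 genes, leaving out replicate 1 of these or NOD PBS replicate 3 gave 4, and 3 passed at an adjusted p under 0.05. In the same interaction 21 of 35 mitosis genes were called higher, and 1 of 15 NK and innate lymphoid markers and none of 6 acinar genes were called.

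After PBS culture 5 of 43 genes were lower in NOD than in C57BL/6 and none higher, against 5.09% and 4.78% of all probe sets, with a median of -0.10 over the 43 genes. They were Rrm2, Ccne1, Mcm5, Pole and Pold1, which were also lower at steady state on other arrays. Of the 96 probe sets that name a member alone, 10 were called lower and none higher. Among them, 3 genes not called at their brightest probe set had another one called lower. Rrm2 was at 7.64, 8.49, 6.63 and 7.73 in C57BL/6 and at 6.51, 5.82, 6.33 and 5.93 in NOD, a difference of -1.47 ± 0.32 or 2.78-fold (adjusted p = 0.0164). Its NOD mean lay below the lower quartile of the arrays, so that this fold too may be understated, and the mean of its 3 probe sets differed by -0.79 (adjusted p = 0.0164). Ccne1 was at 9.37, 9.32, 9.54 and 9.65 against 8.79, 8.99, 8.61 and 8.76, without overlap (-0.68 ± 0.12, adjusted p = 0.00623). Mcm5 differed by -0.68 ± 0.12, Pole by -0.50 ± 0.12 and Pold1 by -0.45 ± 0.10. With the replicate block Mcm7 (-0.45, adjusted p = 0.0792) and Gins1 (-0.50, adjusted p = 0.0685) passed too. Without C57BL/6 PBS replicate 3 the count was 9, and the share of all probe sets called in that fit is not given here. Tk1 (-0.15 ± 0.16), Rrm1 (-0.17 ± 0.16), Cdc6 (0.00 ± 0.20) and Lig1 (-0.05 ± 0.16) were among the 10 largest differences at steady state and did not pass in PBS culture. NK and innate lymphoid markers were lower in NOD in this comparison too, 9 of 15, with a summed level of 14.39 to 14.87 against 14.79 to 15.34, and their part in it was not tested.

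In LPS culture, by contrast, the strain comparison depended on NOD LPS replicate 1, and also on the fit and the probe sets used. With all arrays 1 gene was lower in NOD, Ccne1, at 9.63, 9.67 and 9.43 in C57BL/6 and at 9.25, 8.60, 8.78 and 8.72 in NOD, against 4.88% of all probe sets called lower and 5.03% higher. Of the 96 probe sets that name a member alone, 5 were called lower and none higher. Among them, 3 genes not called at their brightest probe set had another one called lower. Without that replicate 12 genes were lower and none higher, where 9.63% of all probe sets were called in either direction. The largest of these were Rrm2 (-2.33 ± 0.30, adjusted p = 0.00238), Dut (-1.64, adjusted p = 0.00255), Mcm5 (-1.42, adjusted p = 0.00104) and Mcm4 (-1.20, adjusted p = 0.03). With the replicate block NOD LPS replicate 1 has no partner either, since the block compares arrays of the same number. In that fit 14 genes were lower and none higher, against 5.97% and 5.76% of all probe sets. With this replicate kept, Rrm2 passed in a limma fit of all 22 arrays (-1.63 ± 0.51, adjusted p = 0.0443). The labels do not say what arrays of the same number share between the strains. Ccne1 was lower in NOD in all 3 strain comparisons, and in every alternative of each that tested it.

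Replicate 1 of the NOD LPS group differed from the other 3 arrays by much more than these differed among themselves. Rrm2 was at 10.14 on it and at 7.27, 7.49 and 7.24 on the others, Mcm5 at 10.16 against 8.14, 8.30 and 8.31, Mcm4 at 9.85 against 7.90, 8.07 and 8.12, and Dut at 10.71 against 8.24, 8.29 and 8.82. On these genes the array lay at or above the highest C57BL/6 LPS array, apart from Rrm2, which reached 10.22 there. Of 35 mitosis genes 34 lay above their group mean on the same array, with a median deviation of 0.46, and all 8 B cell markers lay above theirs (0.85), while NK and innate lymphoid markers had a median deviation of -0.34 and acinar markers of -1.42. Their part in the level of the replication genes on this array was not tested.

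**Figure D5:**
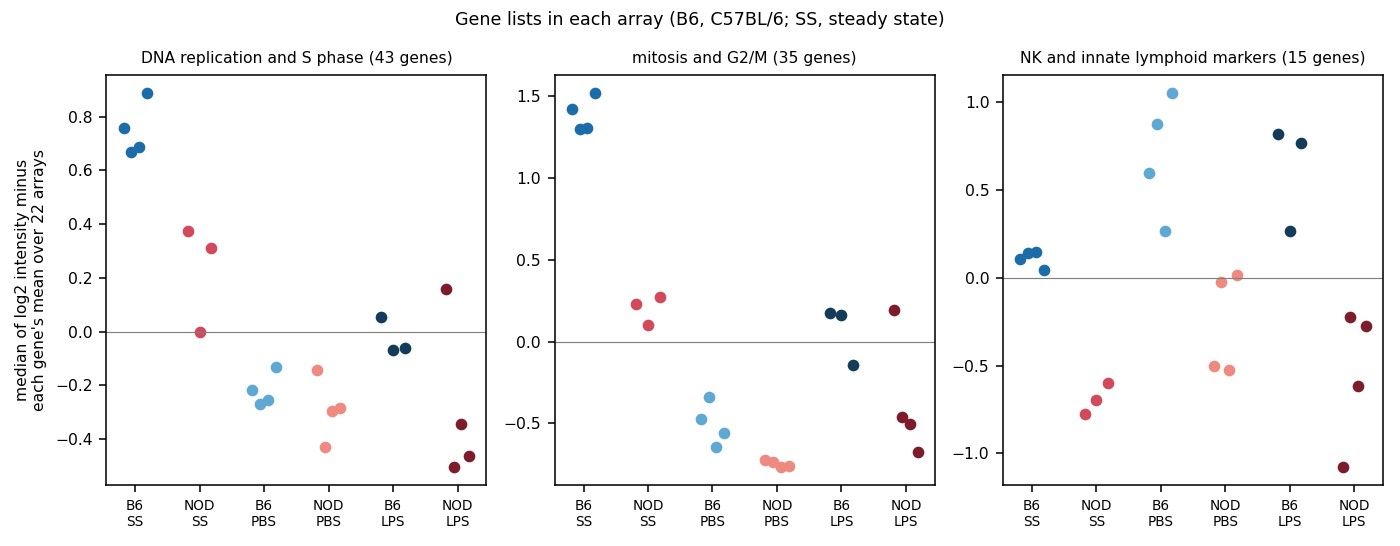
Median over the genes of 3 lists of the log2 intensity minus each gene's mean over 22 arrays, for each array (points), by strain and condition; the vertical axes differ between panels. Replication genes and mitosis genes share the order of the groups at steady state, with C57BL/6 highest, and NOD LPS replicate 1 is the highest NOD LPS point in both (0.16 and 0.19) and the lowest in the NK and innate lymphoid panel (-1.08).

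LPS was compared with PBS culture within each strain, to ask whether the response to this danger signal reached the replication genes. In C57BL/6 DCs 5 of 43 genes were higher with LPS and none lower, against 0.715% and 0.762% of all probe sets. Rrm2 was at 10.22, 9.89 and 8.87 with LPS and at 7.64, 8.49, 6.63 and 7.73 with PBS, a difference of 2.04 ± 0.42 or 4.12-fold (adjusted p = 0.0709), and 1.36 with the mean of its 3 probe sets (adjusted p = 0.0214). Dut was at 10.02, 10.46 and 9.79 against 8.66, 8.93, 7.84 and 9.23 (1.42 ± 0.30, 2.68-fold, adjusted p = 0.0749). The groups did not overlap for either gene. Mcm5 was at 9.67, 9.93 and 9.43 against 8.89, 8.69, 9.04 and 9.07 (0.76 ± 0.16), Uhrf1 was higher by 0.70 and Mcm7 by 0.69. All 5 genes have further probe sets, and for 2 of them another one was called higher.

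These calls lay close to the threshold. None had an adjusted p under 0.05, and Rrm2 was the only one to pass with the replicate block (2.05 ± 0.38, adjusted p = 0.0931), where 0.819% of all probe sets were called higher and 1.3% lower. The count was 0 without any one of PBS replicates 1 and 4 and LPS replicates 2 and 3, and 1 without LPS replicate 4, 2 without PBS replicate 2 and 4 without PBS replicate 3. The median over the 43 genes was 0.11. In either direction 12 had an unadjusted p under 0.05, with Orc1 (-0.46) and Gins1 (-0.51) among them. The share of all genes under that p is not given here. Mitosis genes had 7 of 35 higher and a median of 0.45, and none of the NK and innate lymphoid markers passed.

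In NOD DCs 1 of 43 genes was higher with LPS and none lower, against 1.68% and 2.08% of all probe sets. This was Pola2, the regulatory subunit of polymerase alpha, at 9.69, 9.54, 9.65 and 9.40 with LPS and at 9.12, 8.96, 9.27 and 9.03 with PBS (0.48 ± 0.11, adjusted p = 0.0541), and it stayed called without PBS replicate 3 or LPS replicate 4 and was lost without any one of the other 6 arrays (adjusted p from 0.108 to 0.155). No other probe set of Pola2 was called, and 1 gene not called at its brightest probe set had another one called higher. Rrm2 was at 10.14, 7.27, 7.49 and 7.24 with LPS and at 6.51, 5.82, 6.33 and 5.93 with PBS. Every LPS array lay above every PBS array, and the difference of 1.89 ± 0.53 missed the threshold (adjusted p = 0.109). It passed with the replicate block (adjusted p = 0.0263) and without LPS replicate 1, at a smaller difference (1.19 ± 0.17, adjusted p = 0.00724), and not with the mean of its 3 probe sets (1.06, adjusted p = 0.164). With the block 4 genes passed, Rrm2, Pola1 (0.65) and Pola2 higher and Gins1 lower (-0.35), against 4.29% and 5.21% of all probe sets. The median over the 43 genes was 0.05 with all arrays and -0.086 without LPS replicate 1.

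The response to LPS was not shown to differ between the strains. None of the 43 genes passed the strain by LPS interaction in limma and none had an unadjusted p under 0.05, against 0.0178% of all probe sets called higher in NOD and 0.00666% lower, and the differences of the effects ran from -0.60 to 0.54. Without NOD LPS replicate 1 none passed either, and the lowest differences were those of Dut (-1.17) and Rrm2 (-0.85 ± 0.50, adjusted p = 1), which with all arrays was at -0.15 ± 0.78. Gins2 and Ccne2 were called in none of the 7 comparisons of groups.

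The promoter matches described above went with no sharp split of the genes. At steady state the median difference between the strains was -0.61 for the 14 genes with a match and -0.34 for the 22 without, and the medians of the culture effect were -1.21 and -0.88 in C57BL/6 and -0.73 and -0.48 in NOD. These are descriptions without a test, and Rrm2, the gene with the largest strain difference, is among those in whose window the 4 strings were not present, which says only that these letters are not there.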

How the data were processed

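RNA of sorted CD11c+CD8α- DCs was amplified and hybridised by the authors to Affymetrix whole-genome mouse arrays. The deposited values are log2 intensities, made by the authors with RMA in BRB-ArrayTools (version not given in the sources used here). Every value column belonged to 1 sample. The table held 45101 probe sets, of which 64 controls were left out. The platform annotation, of 2016, gave 1 gene for 34945 probe sets, several for 932 and none for 9160. Genes and lists were chosen with earlier results of these data known. Groups came from the labels. For each sample 10 pooled pancreases are given. The methods split sorted cells between direct lysis and culture with or without LPS, so same-numbered arrays may be portions of 1 pool.

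Each comparison was fitted with limma 3.58.1 (R 4.3.3) on the arrays of the groups it compares (4 groups for an interaction), and p-values were adjusted by Benjamini-Hochberg across the 45037 probe sets, with a call under 0.1. The study's multivariate permutation test was not available, and limma was used at its false discovery rate of 10%. The code was tested on simulated data. Tables and figures used Python 3.11.15, pandas 2.3.3, numpy 2.4.6 and matplotlib 3.10.9. No detection calls or scan dates were at hand, so background and batch were not modelled. Values per array are given for the 10 largest differences between the strains at steady state, the 5 largest elsewhere, the extremes of each role and genes against the prevailing direction, and otherwise by group or difference.

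Deviations of same-numbered arrays were positively correlated in every pair of the strain and LPS comparisons (correlation of deviations from the group means 0.109 to 0.433 at steady state, 0.137 to 0.32 in PBS and 0.114 to 0.345 in LPS culture, 0.259 to 0.423 for LPS in C57BL/6 and 0.241 to 0.487 in NOD). The array of the same number was the best match in 2 of 3 pairs at steady state and 3 of 4 in PBS culture. It was the best match in every pair of the strains in LPS culture and of the LPS comparisons. The fit with the replicate number as a block is given where it changes a call. Culture effects had 2 pairs per strain (-0.0328 and 0.177 in C57BL/6, 0.0996 and 0.277 in NOD), too few to be treated as paired, and their blocked fit is given likewise. Alternatives were the block, each array left out, a stricter threshold, averaging all probe sets of a gene, testing 1 probe set per gene, dropping the dimmer 50%, a joint fit of the 22 arrays, a robust fit with an intensity trend, and median centring.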

Additional observations from a re-analysis of the deposited data

Results flagged for a closer look

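Of 172 tests for an array far from the others, in the 4 groups of 4 arrays, 12 passed, 10 on the high side and 2 on the low side, where chance gives about 1 in 20. NOD LPS replicate 1 was high for Rrm2 (10.14, next array 7.49), Mcm5 (10.16, next 8.31), Mcm4 (9.85, next 8.12) and Cdt1 (11.92, next 11.64). C57BL/6 PBS replicate 3 was low for the helicase subunits Mcm4 (7.92, next 9.17) and Mcm6 (10.11, next 10.83) and high for Chaf1b (9.03, next 8.72). NOD PBS replicate 1 was high for Mcm6 (11.21, next 10.44) and Rrm1 (9.40, next 8.77). Single genes stood apart on 3 more arrays, Mcm3 at 11.19 on C57BL/6 steady-state replicate 4 (next 10.86), Fen1 at 11.35 on C57BL/6 PBS replicate 4 (next 11.03) and Tyms at 8.03 on C57BL/6 PBS replicate 2 (next 7.596).

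The culture effect differed between the strains by limma's interaction for Mcm10 (1.06), Cdt1 (1.01), Rrm1 (0.95), Cdc7 (0.93), Cdc6 (0.83), Fen1 (0.79) and Tk1 (0.69), each as the NOD effect minus the C57BL/6 effect. With the replicate block, for which each strain shared only 2 numbers, none of these genes passed (adjusted p from 0.132 to 0.789).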

How the results depend on the processing

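With 1 array left out, the number of genes called ranged from 16 to 30 for the strains at steady state, 36 to 39 and 30 to 34 for culture in C57BL/6 and NOD, 0 to 4 and 0 to 1 for LPS in C57BL/6 and NOD, 5 to 9 and 1 to 12 for the strains in PBS and LPS culture, and 2 to 8 and 0 to 0 for the strain by culture and strain by LPS interactions. At an adjusted p under 0.05 no gene was called for LPS in either strain and 3 for the strain by culture interaction. One fit of all 22 arrays called 3 and 2 genes for LPS in C57BL/6 and NOD and 10 for the strains in LPS culture. The replicate block called 1 and 4 for LPS, 14 for the strains in LPS culture and 0 for the strain by culture interaction, where the numbers were not treated as pairs. The strains in LPS culture gave 6 calls without the dimmer probe sets, 4 with the mean over probe sets and 2 with 1 probe set per gene, which gave 2 for LPS in NOD. The mean over probe sets gave 14 calls for the strain by culture interaction. The share of all features called is not given for most of these alternatives. A changed count therefore does not show that the replication genes in particular gained or lost calls. It also turned the direction of culture in C57BL/6 for Gins2 (-0.28) and Tyms (-0.34), of culture in NOD for Tyms (-0.055) and of the strains in PBS culture for Prim2 (-0.48), and the median for LPS in NOD turned without NOD LPS replicate 1 (-0.086, and 0.13 at the other end of the range with 1 array left out). The mean over probe sets also moved Rrm2 by over 1.5 times for culture in NOD (-1.51), for the strains in PBS culture (-0.79) and for LPS in C57BL/6 (1.36) and NOD (1.06). The cause was not tested. Calls kept in every alternative that tested the gene were 12 of 24 at steady state, 32 of 37 and 27 of 32 for culture in C57BL/6 and NOD, 3 of 5 and 1 of 1 for the strains in PBS and LPS culture, and 0 for LPS and for the strain by culture interaction. Without detection calls, a level near the lower quartile has no known distance from background.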
